A study of Mus musculus with 6 samples.

Results

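The lysosome genes were examined in bulk liver RNA-seq of mice given a single dose of ethanol and of control mice. Genes were taken as members when the deposited table assigned them to the KEGG lysosome pathway but not to oxidative phosphorylation and their symbol did not start with Slc or Abc. This rule, which uses no expression value, selected 114 of the 28880 genes in the table. All mice were male wild type C57BL/6J animals aged 6 to 8 weeks. The 3 acute ethanol-exposed mice were fasted for 12 h, received 50% ethanol once by mouth at 6 g/kg and gave liver tissue 24 h later, whereas the 3 control mice received no ethanol. The labels do not say whether control mice were fasted or given a vehicle, so ethanol and the fast cannot be told apart, and all 6 libraries carry the same batch label. Each library is labelled as a mouse of its own.

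Lysosomes are acidic organelles in which proteases, glycosidases, sulfatases, lipases, nucleases and phosphatases break down material delivered by endocytosis and autophagy. Most of these hydrolases receive a mannose 6-phosphate tag in the Golgi and are sorted to the organelle by mannose 6-phosphate receptors, clathrin and adaptor protein complexes, while heavily glycosylated membrane proteins line the organelle and carry its transporters and channels. Many of the genes share the CLEAR element, an E-box bound by TFEB, TFE3 and MITF, and in the liver the pathway serves the turnover of proteins, lipid droplets and cholesteryl esters.

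The E-box core CACGTG was looked for in RefSeq promoters (GRCm38.p6) from 250 bases before to 50 bases after the gene start, a palindrome that reads the same on both strands. Of 89 members with a promoter in that table, 22 (24.7%) held CACGTG, compared with 8.09% of all 27025 genes in it and 8.91% of the 17492 protein-coding genes. The longer palindrome TCACGTGA, which contains CACGTG, was in 9 members (10.1%) and in 1.12% of all genes. The 6 sequences below, all upstream of the gene start and written 5′ to 3′ on the strand of the gene with CACGTG in capitals, are shown because they are proteases, membrane proteins and a receptor described below, and Ctsl and Ctsf are the upregulated genes among them. The stretch printed for Lamp1 (chr8:13159070-13159160, plus strand) holds 4 copies and that for Mcoln1 (chr8:3500418-3500509, plus strand) holds 2, while those for Ctsd (chr7:142387890-142387955, minus strand), Ctsl (chr13:64370721-64370770, minus strand), Ctsf (chr19:4855056-4855121, plus strand) and Igf2r (chr17:12769719-12769784, minus strand) each hold 1. The promoters of Ctsd and Igf2r hold a further copy outside the stretch printed.
Lamp1: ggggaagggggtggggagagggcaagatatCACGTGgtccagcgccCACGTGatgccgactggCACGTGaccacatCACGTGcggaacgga
Mcoln1: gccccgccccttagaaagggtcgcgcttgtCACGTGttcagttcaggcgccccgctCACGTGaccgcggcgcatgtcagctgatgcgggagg
Ctsd: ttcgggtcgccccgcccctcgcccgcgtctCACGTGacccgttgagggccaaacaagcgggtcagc
Ctsl: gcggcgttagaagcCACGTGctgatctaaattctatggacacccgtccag
Ctsf: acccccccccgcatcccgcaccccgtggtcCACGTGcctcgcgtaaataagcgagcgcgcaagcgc
Igf2r: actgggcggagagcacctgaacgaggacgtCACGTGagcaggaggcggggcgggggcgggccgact

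The 6 libraries held 60514417 to 74210869 counts, and lysosome genes took 0.629% to 0.655% of them in the ethanol group, below the 0.708% to 0.73% of the control group. Levels of 1 gene across mice are given below as CPM, the counts scaled to an equal library total, after TMM scaling, which corrects for a few genes taking a larger share of the reads, and levels of different genes are given in the deposited FPKM, which are per transcript length. Ratios of the counts of 2 genes or roles within a library are not per length and serve only to compare the groups. The TMM factors were 0.768 to 0.836 in the ethanol group and 1.26 to 1.27 in the control group, so the choice of scale matters for the fold changes and for the calls. Over all 16717 genes tested the log2 fold change had a median of -0.04 on the TMM scale and of -0.71 with library size alone. The summed CPM of lysosome genes after TMM scaling was 8272, 7836 and 8202 in acute ethanol-exposed mice and 5776, 5770 and 5633 in control mice, the opposite order to their share of all counts. On the same TMM scale, hepatocyte markers summed to 154000 to 164000 CPM in the ethanol group compared with 80100 to 92600 CPM in the control group. None of the 10 was at 0. By the thresholds given below 3 of them (Apoa1, Fgb and Tat) were upregulated and none downregulated, compared with 10.4% and 13.8% of all genes tested. How much of the difference in the sum comes from the scale or from these 3 genes was not tested. Ethanol replicate 3 stood apart from the other 2 ethanol libraries on the second principal component of all genes tested, and it was the ethanol library farthest from the group median for 66 of the 110 lysosome genes tested.

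Lysosome genes moved in both directions. Of the 114 members 110 had enough counts for the test, Ctsj and Lamp3 were too low, and Hyal4 and Hyal6 had 0 counts in every library. Upregulated and downregulated genes are those with an adjusted p-value under 0.05 and an absolute log2 fold change over 1 (edgeR quasi-likelihood test, Benjamini-Hochberg adjustment over all genes tested). Among the tested members 10 were upregulated (9.09%, compared with 10.4% of all genes tested) and 4 were downregulated (3.64%, compared with 13.8%). The upregulated members were Hyal3, Cd63, Ctsl, Litaf, Arsg, Galns, Hgsnat, Cd68, Ctsf and Ctns, and the downregulated members were Ap3m2, Wdr7, Acp2 and Ap1g2. The share upregulated was thus near that of all genes and the share downregulated was below it. By the adjusted p-value alone 38 members were higher (34.5%, compared with 21.5% of all genes tested), 17 were lower (15.5%, compared with 21.5%) and 55 passed in neither direction. The groups of 3 did not overlap for 69 of the 110 members (62.7%, compared with 59% of all genes tested). The median log2 fold change of the members was 0.13, and 57 of the 110 had an absolute value of at most 0.5. Their median standard error was 0.15, compared with 0.257 over all genes tested. Smaller changes can thus pass among the members, so shares by the adjusted p-value alone, here and by role below, are not like for like. Under library size alone 36 of the 110 members changed sign, and 7 of the 14 upregulated or downregulated members (Arsg, Cd68, Ctns, Ctsf, Galns, Hgsnat and Litaf) no longer passed both thresholds. On that scale 3 members were upregulated (2.73%, compared with 5.06% of all genes) and 24 downregulated (21.8%, compared with 32.2%), and the median of the members was -0.54. The test on log2(FPKM + 1) with limma lost 12 of the 14 calls and that on log2(FPKM + 0.1) lost 7, while none of the 14 changed sign under any of the 15 alternative settings in which it was tested.

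The plot of log2 fold changes by role separates the parts of the pathway. Medians relative to that of all genes tested were 0.57 for membrane proteins, 0.76 for proteases and 0.46 for glycosidases, and these 3 stayed above 0 under every alternative setting. They were smaller with the filter at a mean FPKM of 5 (0.25, 0.40 and 0.17) and with limma on log2(FPKM + 1) (0.12, 0.27 and 0.08). They were -0.45 for adaptor complexes and -0.31 for mannose 6-phosphate tagging and sorting, and both of these stayed below 0 under every alternative setting. The medians of clathrin (0.44), sulfatases (0.28), lipid hydrolases (0.10) and nucleases and phosphatases (-0.09) did not keep 1 sign under all settings. The gap between roles within a library depends little on the scaling of libraries. The mean of log2(CPM + 0.5) over proteases exceeded that over adaptor complexes by 2.06, 1.92 and 2.0 in acute ethanol-exposed mice and by 1.05, 1.12 and 1.12 in control mice. For membrane proteins the excess over adaptor complexes was 2.63, 2.55 and 2.38 in acute ethanol-exposed mice and 1.58, 1.6 and 1.59 in control mice, and for glycosidases it was 1.28, 1.26 and 1.21 compared with 0.414, 0.382 and 0.441. All 3 gaps were wider in every ethanol-exposed mouse than in any control mouse.

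**Figure D1:**
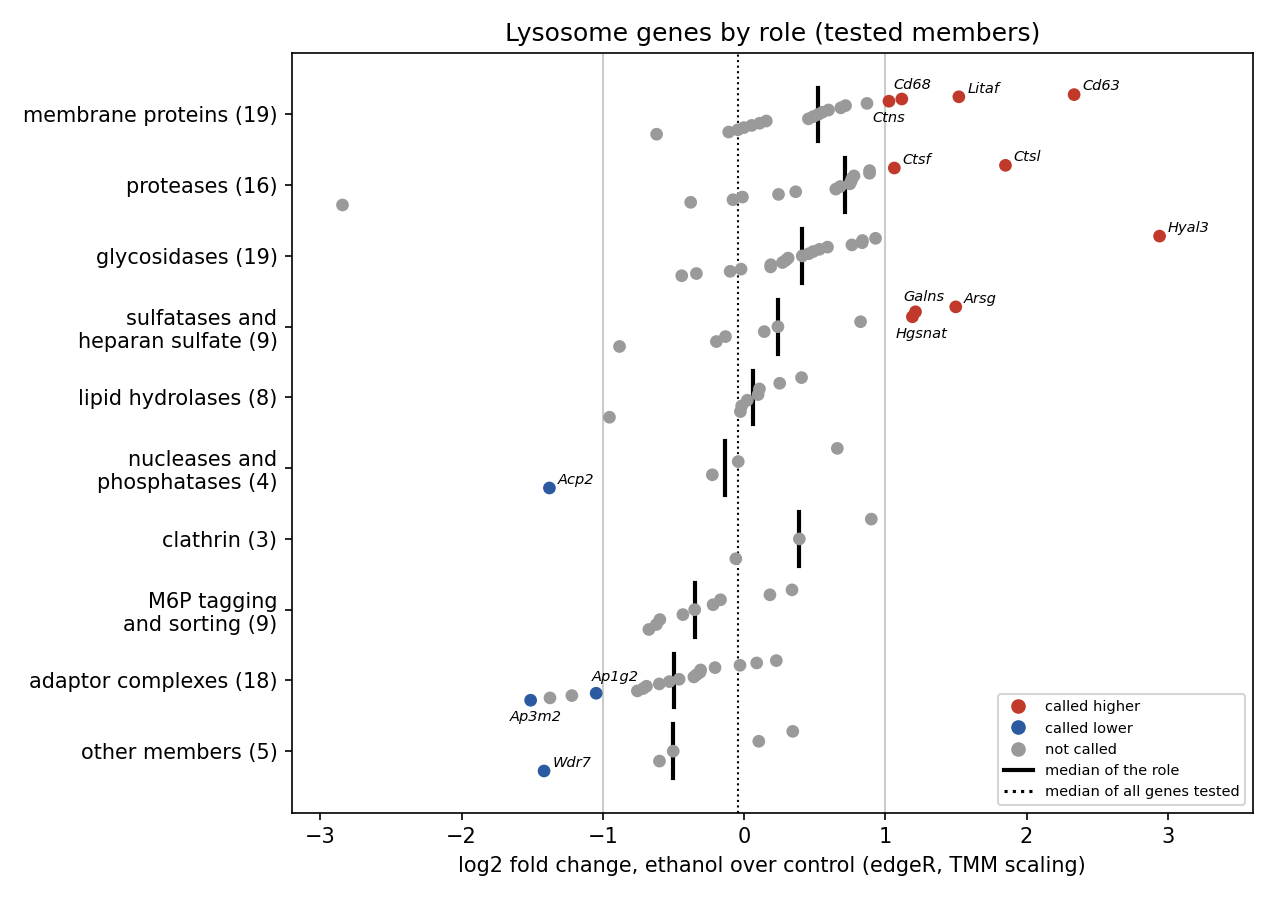
The horizontal axis is the log2 fold change of ethanol-exposed over control mice (edgeR, TMM scaling), each point is 1 of the 110 tested lysosome genes, rows are roles with the number tested, red and blue mark upregulated and downregulated genes, black bars are role medians, the dotted line marks the median over all tested genes and grey lines mark an absolute log2 fold change of 1. The red points lie in the membrane, protease, glycosidase and sulfatase rows and the blue points in the phosphatase, adaptor and other rows, with the glycosidase median at 0.41 (-0.26 under library size alone) and the adaptor median at -0.49.

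Among the 16 proteases tested, 2 were upregulated (12.5%, compared with 10.4% of all genes tested) and none was downregulated (13.8% of all genes), and by the adjusted p-value alone 8 were higher and 1, Ctsc, was lower, each beside 21.5% of all genes. Ctsl encodes cathepsin L, a cysteine endopeptidase of the lysosome lumen. Its CPM was 1413, 1019 and 1649 in acute ethanol-exposed mice and 382.6, 370.5 and 378 in control mice. Every ethanol-exposed mouse was far above the narrow range of the control mice, with ethanol replicate 2 the lowest of the 3. The mean was 1361 ± 318 (SD, n = 3) compared with 377 ± 6.13 (SD, n = 3), a log2 fold change of 1.85 ± 0.18 (SE), with an adjusted p-value from edgeR of 4.7e-04. With library size alone this log2 fold change was 1.17 and without ethanol replicate 3 it was 1.7, both still past the thresholds.

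Ctsb encodes the cysteine protease cathepsin B, and the ratio of Ctsl to Ctsb within a library does not depend on the scaling of libraries. Ctsl had 2.91, 2.0 and 3.35 counts per count of Ctsb in acute ethanol-exposed mice and 0.876, 0.897 and 0.928 in control mice. The ratio was higher in every ethanol-exposed mouse than in any control mouse. Ctsl took 17.1%, 13% and 20.1% of all counts on lysosome genes in acute ethanol-exposed mice and 6.62%, 6.42% and 6.71% in control mice. Ctsb itself was at 486.5, 510.5 and 491.9 CPM compared with 437, 413.1 and 407.1 CPM, groups that did not overlap, with a log2 fold change of 0.24 that missed the threshold (adjusted p-value from edgeR 0.081) and was -0.42 (0.015) under library size alone. With the length trend removed it was 0.44 (adjusted p-value from edgeR 0.011), so the sign of Ctsb depended on the setting.

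Ctsf, which encodes the cysteine protease cathepsin F, was the other upregulated protease. It was at 33.27, 29.81 and 32.98 CPM in acute ethanol-exposed mice and 15.99, 16.48 and 13.45 CPM in control mice. The groups were apart and about equally tight, and the log2 fold change was 1.06 ± 0.12 (SE, adjusted p-value from edgeR 7.7e-04), and was 0.98 without control replicate 3 and 0.39 under library size alone. The aspartic protease cathepsin D, encoded by Ctsd, was at 367.2, 346 and 388 CPM in acute ethanol-exposed mice and 235.6, 235.9 and 230.4 CPM in control mice. Ctsz, a cysteine carboxypeptidase, was at 250.4, 245.8 and 203.8 CPM compared with 132.6, 138.8 and 142.4 CPM. Neither group pair overlapped, and the log2 fold changes of 0.65 for Ctsd (adjusted p-value from edgeR 0.0023) and 0.76 for Ctsz (0.0023) passed the adjusted threshold without reaching 1. Neither passed under library size alone, at -0.02 (adjusted p-value from edgeR 0.87) for Ctsd and 0.094 (0.57) for Ctsz. Per transcript length these 2 and Ctsl were the proteases with the highest levels, at 116.4 FPKM for Ctsd, 116.5 FPKM for Ctsz and 111.4 FPKM for Ctsl on average over the 6 libraries.

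Of 19 tested membrane proteins and proteins that handle cholesterol or ions, 4 were upregulated (21.1%, compared with 10.4% of all genes tested). None was downregulated (13.8% of all genes). By the adjusted p-value alone 11 were higher and none lower (21.5% of all genes in each direction). Cd63 encodes a tetraspanin of late endosomes, lysosomes and exosomes, and its CPM was 9.924, 7.571 and 19.79 in acute ethanol-exposed mice and 2.131, 2.795 and 2.453 in control mice. All 3 ethanol-exposed mice were above all control mice, with replicate 3 the highest. The log2 fold change of Cd63 was 2.34 ± 0.37 (SE, adjusted p-value from edgeR 0.0027) and was 1.84 without ethanol replicate 3. Litaf, whose protein takes part in sorting at late endosomes and in the response to lipopolysaccharide, was at 115, 119.1 and 190.8 CPM compared with 49.67, 50.09 and 48.29 CPM. The control values lay within a narrow range far below the ethanol values, and the log2 fold change was 1.52 ± 0.20 (SE, adjusted p-value from edgeR 0.0014), or 0.85 under library size alone.

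Ctns, the cystine exporter cystinosin, was at 27.57, 25.57 and 18.89 CPM in acute ethanol-exposed mice and 12.48, 11.29 and 11.61 CPM in control mice. Cd68, a heavily glycosylated protein best known from macrophage lysosomes, was at 10.31, 9.451 and 4.471 CPM compared with 4.006, 3.78 and 3.388 CPM. For both genes ethanol replicate 3 lay nearest to the control mice, and for Cd68 it almost touched them. The log2 fold change of Ctns was 1.03 ± 0.16 (SE, adjusted p-value from edgeR 0.0026) and that of Cd68 was 1.12 ± 0.31 (SE, 0.025), and these 2 calls were lost most often when 1 library was left out. Without ethanol replicate 1 the values were 0.92 for Ctns and 0.91 for Cd68, the latter with an adjusted p-value from edgeR of 0.086, and under library size alone they were 0.36 (adjusted p-value from edgeR 0.11) and 0.46 (0.27). Cd68 was also not called without ethanol replicate 2 or without any 1 of the control replicates. Kupffer cell markers, 10 of 10 tested with none upregulated or downregulated, summed to 123 to 168 CPM in the ethanol group and to between 153 and 170 CPM in the control group. Of 8 neutrophil markers 5 had enough counts for the test and 4 were upregulated, while Camp, Ly6g and Ngp were too low. S100a8, Cxcr2 and Retnlg were near 0 in control mice (S100a8 at 0, 0 and 0.0486 CPM), so the number upregulated depends on the count filter. The neutrophil markers summed to 3.18 to 15.2 CPM compared with 1.15 to 1.79 CPM, and the part of either cell type in the level of Cd68 was not tested. Of the markers of monocytes and recruited macrophages, sinusoidal endothelial cells, stellate cells, cholangiocytes, T and NK cells and B cells, Lyve1 and Sox9 were upregulated and Ccr2, Fcgr2b, Kdr, Col1a1 and Ms4a1 were downregulated. A list of 8 lysosome genes drawn up for blood or immune cells held Cd68, Ctss, Laptm5, Acp5, Ctsw, Ctsk, Ctse and Napsa. Of these 1, Cd68, was upregulated (12.5%, compared with 10.4% of all genes tested) and none was downregulated (13.8% of all genes). By the adjusted p-value alone 4 were higher and none lower (21.5% of all genes in each direction). The median log2 fold change was 0.70, but Ctsw, Ctsk, Ctse and Napsa averaged under 1 FPKM. The list was not tested against any cell type, so this median does not measure immune cells. In bulk tissue, fewer cells of a type and less RNA per cell cannot be told apart.

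Lamp1 and Lamp2 encode the main glycoproteins of the lysosomal membrane. Lamp1 was at 773.7, 719.7 and 714.8 CPM in acute ethanol-exposed mice and 470.1, 509.4 and 479.2 CPM in control mice, and at 209.0 FPKM it was the most abundant member per transcript length. Lamp2 was at 491.8, 480.8 and 522.6 CPM compared with 459, 436.4 and 445.3 CPM. On the TMM scale Lamp1 was higher in all 3 ethanol-exposed mice, with a log2 fold change of 0.60 (adjusted p-value from edgeR 0.0037) that was -0.07 under library size alone, and Lamp2 had 0.16 (0.23) on the first scale and -0.51 (0.0047) on the second. The cholesterol transfer proteins differed in spread. Npc2, the soluble carrier of the lumen, was at 57.67, 57.57 and 57.89 CPM compared with 38.32, 35.97 and 33.37 CPM, a log2 fold change of 0.69 (adjusted p-value from edgeR 0.0018) that was 0.017 (0.90) under library size alone. Npc1, the membrane transporter that receives cholesterol from it, was at 138.5, 144.9 and 77.18 CPM compared with 82.81, 77.81 and 84.82 CPM. Ethanol replicate 3 of Npc1 lay below all control mice and the other ethanol-exposed mice above them, and the log2 fold change of 0.55 missed the threshold (adjusted p-value from edgeR 0.087). With the length trend removed Npc1 was at 0.74 and passed the adjusted threshold (adjusted p-value from edgeR 0.036). Mcoln1, the calcium channel TRPML1, was at 43.68, 45.15 and 33 CPM compared with 27.48, 29.79 and 29.5 CPM, with a log2 fold change of 0.49 (adjusted p-value from edgeR 0.027) that was -0.17 under library size alone.

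Glycosidases remove sugars from glycoproteins, glycolipids and glycosaminoglycans. Of 19 tested on this role list, 1 was upregulated (5.26%, compared with 10.4% of all genes tested) and none downregulated (13.8% of all genes). By the adjusted p-value alone 9 were higher and 1, Manba, was lower, compared with 21.5% of all genes in each direction. Fuca1, the fucosidase that trims glycoproteins, was at 77.55, 72.9 and 78.28 CPM in acute ethanol-exposed mice and 40.55, 44.24 and 43.3 CPM in control mice. Hexa, the alpha subunit of beta-hexosaminidase, was at 49.57, 44.71 and 40.63 CPM compared with 23.55, 23.89 and 23.33 CPM. Both were well apart between groups and just short of a log2 fold change of 1, at 0.84 for Fuca1 (adjusted p-value from edgeR 7.5e-04) and 0.93 for Hexa (8.7e-04). Under library size alone Fuca1 was at 0.17 and did not pass (adjusted p-value from edgeR 0.18). The upregulated glycosidase was Hyal3, a hyaluronidase-related gene at 174, 140 and 103 counts in acute ethanol-exposed mice and 10, 16 and 51 counts in control mice. The ethanol values were all higher, control replicate 3 stood above the other control mice, and the log2 fold change was 2.94 ± 0.63 (SE, adjusted p-value from edgeR 0.0088), or 3.92 without control replicate 3 and 2.52 without control replicate 1. Hyal3 overlaps Hyal1 and Naa80 on the same strand, which had 1880 to 3312 and 3283 to 4920 counts per library, so its low counts are uncertain.

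Sulfatases and heparan sulfate enzymes degrade glycosaminoglycans. Of the 9, 3 were upregulated (33.3%, compared with 10.4% of all genes tested) and none was downregulated (13.8% of all genes). By the adjusted p-value alone 4 were higher and 1 was lower, compared with 21.5% of all genes in each direction. Hgsnat, the transmembrane acetyltransferase of heparan sulfate breakdown, was at 70.62, 71.15 and 77.26 CPM in acute ethanol-exposed mice and 31.47, 33.99 and 30.41 CPM in control mice. The groups were tight and far apart, and the log2 fold change of 1.19 ± 0.10 (SE) had the smallest adjusted p-value of all members in edgeR, at 2.5e-04. Arsg, the arylsulfatase that acts on heparan sulfate, was at 47.48, 39.23 and 57.89 CPM compared with 17.03, 17.78 and 16.34 CPM. Galns, which removes sulfate from keratan and chondroitin sulfate, was at 20.47, 14.81 and 15.14 CPM compared with 6.233, 8.163 and 7.347 CPM. Neither of these 2 genes overlapped between groups, and the log2 fold changes were 1.5 ± 0.16 (SE, adjusted p-value from edgeR 5.4e-04) for Arsg and 1.21 ± 0.18 (SE, 0.0022) for Galns. All 3 calls depended on scaling, since with library size alone the log2 fold changes were 0.52 for Hgsnat, 0.82 for Arsg and 0.54 for Galns. Sgsh, the sulfamidase of the same heparan sulfate route, had the opposite sign, with a log2 fold change of -0.88 (adjusted p-value from edgeR 0.013).

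None of the 8 lipid hydrolases and activators was upregulated or downregulated (10.4% and 13.8% of all genes tested), although Lipa came close. Psap was higher and Lipa lower by the adjusted p-value alone, compared with 21.5% of all genes in each direction. Lipa encodes lysosomal acid lipase, which hydrolyses cholesteryl esters and triglycerides, and it was at 72.39, 93.78 and 61.77 CPM in acute ethanol-exposed mice and 158.3, 146.2 and 136.7 CPM in control mice. Every ethanol-exposed mouse was below every control mouse, and the log2 fold change was -0.95 ± 0.16 (SE, adjusted p-value from edgeR 0.0038). It passed both thresholds under library size alone (-1.61), with the filter at a mean FPKM of 5 (-1.23), with limma on FPKM (-1.53 and -1.63 with pseudocounts of 1 and 0.1), without ethanol replicate 2 (-1.13) and without control replicate 3 (-1.01). Within a library, Lipa had 0.0936, 0.13 and 0.0864 counts per count of Lamp1 in acute ethanol-exposed mice and 0.337, 0.287 and 0.285 in control mice, a separation that no scaling of libraries changes. Psap, the precursor of the saposins that present sphingolipids to their hydrolases, was at 365.8, 367 and 308.8 CPM compared with 267.2, 272.1 and 246.2 CPM. The groups did not overlap, and the log2 fold change of Psap was 0.41 (adjusted p-value from edgeR 0.025) with TMM and -0.26 with library size alone.

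On the TMM scale the 2 acid phosphatases had log2 fold changes of opposite sign. Acp2, lysosomal acid phosphatase, was at 20.61, 19.16 and 11.82 CPM in acute ethanol-exposed mice and 45.43, 44.62 and 44.08 CPM in control mice. Acp5, the tartrate-resistant enzyme, was at 158.7, 141.8 and 100.9 CPM compared with 82.33, 86.32 and 85.29 CPM. For both genes the groups were apart and the control mice were close to each other, with a log2 fold change of -1.38 ± 0.20 (SE, adjusted p-value from edgeR 0.0021) for Acp2 and 0.66 ± 0.17 (SE, 0.018) for Acp5, the latter being -0.0036 under library size alone. Acp2 had 0.13, 0.135 and 0.117 counts per count of Acp5 in acute ethanol-exposed mice and 0.552, 0.517 and 0.517 in control mice. Neither nuclease, Dnase2a or Dnase2b, passed the adjusted threshold.

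**Figure D2:**
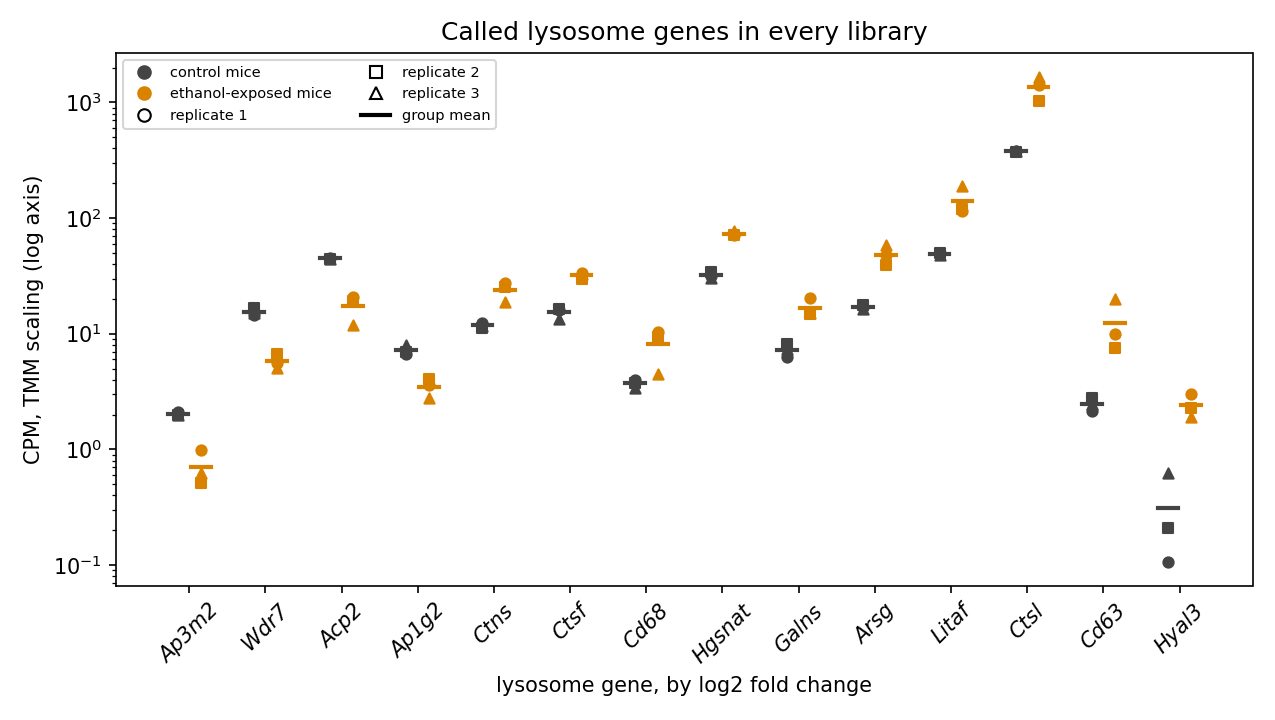
The vertical axis is CPM after TMM scaling on a log axis, the horizontal axis lists the 14 upregulated or downregulated lysosome genes by log2 fold change, symbols are replicates, colours are groups and bars are group means. No gene overlaps between groups, and ethanol replicate 3 (triangle) is the farthest from the ethanol median for Acp2, Ap1g2, Ctns, Cd68, Hgsnat, Arsg, Litaf and Cd63.

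Receptors and clathrin coats bring hydrolases to the organelle. The cation-dependent receptor M6pr was at 88.03, 93.19 and 71.56 CPM in acute ethanol-exposed mice and 75.8, 73.93 and 72.89 CPM in control mice, and the cation-independent receptor Igf2r was at 27.67, 28.65 and 20.93 CPM compared with 26.5, 30.25 and 29.97 CPM. Both overlapped between groups, with log2 fold changes of 0.18 (adjusted p-value from edgeR 0.26) for M6pr and -0.17 (0.38) for Igf2r. Under library size alone they were -0.48 (adjusted p-value from edgeR 0.024) and -0.83 (0.0043). Of the 9 genes for tagging and sorting none was upregulated or downregulated (10.4% and 13.8% of all genes tested), and by the adjusted p-value alone Gnptg was higher and Nagpa and Sort1 were lower, where 21.5% of all genes passed in each direction. Under library size alone 4 of the 9 were downregulated (32.2% of all genes), and with limma on log2(FPKM + 0.1) 5 were (29.7% of all genes). Cltc, the clathrin heavy chain, was at 124.4, 129.7 and 129.9 CPM compared with 140.2, 132.2 and 127.4 CPM, overlapping groups with a log2 fold change of -0.06 ± 0.09 (SE, adjusted p-value from edgeR 0.64), which was -0.73 (0.0012) under library size alone and -0.33 (0.013) with the filter at a mean FPKM of 5. The light chain Clta was at 62.79, 65.47 and 62.56 CPM compared with 48.34, 48.85 and 48.28 CPM, a log2 fold change of 0.39 (adjusted p-value from edgeR 0.011) that was -0.28 under library size alone. The other light chain Cltb was at 57.42, 53.06 and 82.97 CPM compared with 31.94, 36.55 and 35.11 CPM. The groups of Cltb were apart, with ethanol replicate 3 the highest, and the log2 fold change was 0.90 (adjusted p-value from edgeR 0.0069).

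Adaptor complexes select cargo for these coats. Of the 18 subunits of AP-1, AP-3 and AP-4, 2 were downregulated (11.1%, compared with 13.8% of all genes tested), and by the adjusted p-value alone 8 were lower and none was higher, compared with 21.5% of all genes in each direction. Under library size alone 10 subunits were downregulated (32.2% of all genes), and with limma on log2(FPKM + 0.1) 8 were (29.7% of all genes). The groups did not overlap for 12 subunits that were lower and 1 that was higher, compared with 31% and 28% of all genes tested. The median log2 fold changes were -0.66 for the 8 AP-1 subunits, -0.58 for the 6 AP-3 subunits and -0.17 for the 4 AP-4 subunits, and differences between the complexes were not tested. The AP-3 complex carries membrane proteins to lysosomes and related organelles. Its mu subunit Ap3m1, the most abundant adaptor gene per transcript length at 10.3 FPKM, was at 59.94, 65.44 and 57.34 CPM in acute ethanol-exposed mice and 83.2, 81.72 and 86.41 CPM in control mice. The groups were apart, and the log2 fold change was -0.46 ± 0.10 (SE, adjusted p-value from edgeR 0.0083). It was -1.12 under library size alone, which passed both thresholds, and -0.27 with the length trend removed, which did not pass (adjusted p-value from edgeR 0.067). The second mu subunit Ap3m2 was much rarer, at 57, 31 and 34 counts compared with 196, 150 and 164 counts, and was downregulated with a log2 fold change of -1.51 ± 0.33 (SE, adjusted p-value from edgeR 0.0093). The gamma subunit of AP-1, Ap1g2, was at 3.615, 4.088 and 2.767 CPM compared with 6.712, 7.008 and 7.929 CPM. It was downregulated with a log2 fold change of -1.05 ± 0.20 (SE, adjusted p-value from edgeR 0.0058), which was -0.90 without ethanol replicate 3, -0.98 without control replicate 3 and -0.87 with the length trend removed. Ap1g2 overlaps Thtpa on the opposite strand, whose own log2 fold change was -1.04 (adjusted p-value from edgeR 0.0013), and the strand setting of the counting is not given in the sources used here.

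The 7 members outside the role lists included Hyal4, Hyal6 and the fucosidase gene Fuca2, which the glycosidase counts and median above therefore leave out. The log2 fold change of Fuca2 was -0.60 (adjusted p-value from edgeR 0.077), with every ethanol-exposed mouse below every control mouse. Dmxl1, Dmxl2 and Wdr7, rabconnectin proteins that act on the assembly of the proton pump, were also among the 7. Wdr7 was at 5.631, 6.704 and 5.021 CPM in acute ethanol-exposed mice and 14.52, 16.68 and 15.13 CPM in control mice. The groups were far apart, and Wdr7 was downregulated with a log2 fold change of -1.42 ± 0.16 (SE, adjusted p-value from edgeR 6.8e-04). Dmxl2, its partner, was at 39.11, 38.8 and 37.27 CPM compared with 29.35, 30.11 and 31.23 CPM, a log2 fold change of 0.34 (adjusted p-value from edgeR 0.020) that was -0.32 (0.031) under library size alone. The log2 fold change of Dmxl1 was -0.50 (adjusted p-value from edgeR 0.038), and its groups did not overlap. The proton pump subunits proper lie outside the rule because they also belong to oxidative phosphorylation. Of these 10 genes 9 were tested, and 1, Atp6v0b, was upregulated (log2 fold change 1.02, adjusted p-value from edgeR 0.0019), compared with 10.4% of all genes. By the adjusted p-value alone 6 were higher and none lower (21.5% of all genes in each direction). The median of these proton pump genes relative to all genes was 0.56. None of them was upregulated under library size alone, with DESeq2, with limma or without a filter. The Atp6v0b call was also lost with the filter at a mean FPKM of 5 and without ethanol replicate 1. Among the 5 Slc and Abc genes the sialic acid exporter Slc17a5 was upregulated (1.07) and Abca2 was downregulated (-1.48).

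Of the transcription factors that bind the CLEAR element, Tfeb was at 4.78, 3.238 and 3.298 CPM in acute ethanol-exposed mice and 6.467, 5.696 and 6.363 CPM in control mice. Tfe3 was at 19.15, 23.2 and 19.85 CPM compared with 18.04, 20.58 and 17.5 CPM, and Mitf was at 0.7821, 1.537 and 0.8246 CPM compared with 3.857, 3.675 and 4.59 CPM. The groups were apart for Tfeb and Mitf, both lower, and overlapped for Tfe3. The log2 fold changes were -0.71 (adjusted p-value from edgeR 0.031) for Tfeb, 0.15 (0.37) for Tfe3 and -1.94 (0.0033) for Mitf. Tfeb missed the adjusted threshold with the length trend removed (-0.52, adjusted p-value from edgeR 0.091), without ethanol replicate 2 (0.082) and without control replicate 1, 2 or 3 (0.070 to 0.098), and passed both thresholds under library size alone (-1.38, 0.0013). In the wider list of the TFEB family, its mTORC1 and Ragulator regulators and the folliculin complex, 23 of 24 genes were tested. None was upregulated (10.4% of all genes tested) and 1, Mitf, was downregulated (4.35%, compared with 13.8%). By the adjusted p-value alone 5 were higher and 6 lower, near the 21.5% of all genes in each direction. RNA levels do not measure where these factors are in the cell. Members with CACGTG in the promoter, among them the Lamp1, Ctsd and Ctsl sequences above, had 2 upregulated and no downregulated genes of 22 and a median log2 fold change of 0.23. Members without it had 6 upregulated and 2 downregulated genes of 64 and a median of 0.09. Both shares upregulated are near the 10.4% of all genes, and 13.8% of all genes tested were downregulated.

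The fold change of members followed their abundance, as it did for all genes. Abundance is the mean FPKM over all 6 libraries, so it holds the ethanol values and is not independent of the fold change. The 5 members at 100 FPKM or more (Lamp1, Ctsz, Ctsd, Ctsl and Psap) had a median log2 fold change of 0.65, compared with 0.69 for all genes in that range, and the 16 members under 1 FPKM had -0.52, compared with -0.40. Members from 1 to 5 FPKM had a median of -0.04 (all genes -0.06), those from 5 to 20 FPKM 0.21 (0.20) and those from 20 to 100 FPKM 0.42 (0.37). In each range the median of the members was close to that of all genes. The abundance of the members was higher, at a median of 6.13 FPKM compared with 1.5 FPKM for all genes tested. The correlation of log2 fold change with mean FPKM was a Spearman rho of 0.44 over the 110 members and 0.25 over all genes tested, and with transcript length it was -0.32 and -0.13, where all points share the same 6 libraries. The 5 highest members by that mean held 45.4%, 43.1% and 45.7% of the summed FPKM of lysosome genes in acute ethanol-exposed mice. In control mice they held 36.4%, 37.2% and 36.9%. Ctsl averaged 154.2 FPKM in the ethanol group and 68.52 FPKM in the control group, where Ctsb was higher at 81.68 FPKM. Ctsl is thus among the 5 through its ethanol level, and the wider share follows in part from that choice.

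**Figure D3:**
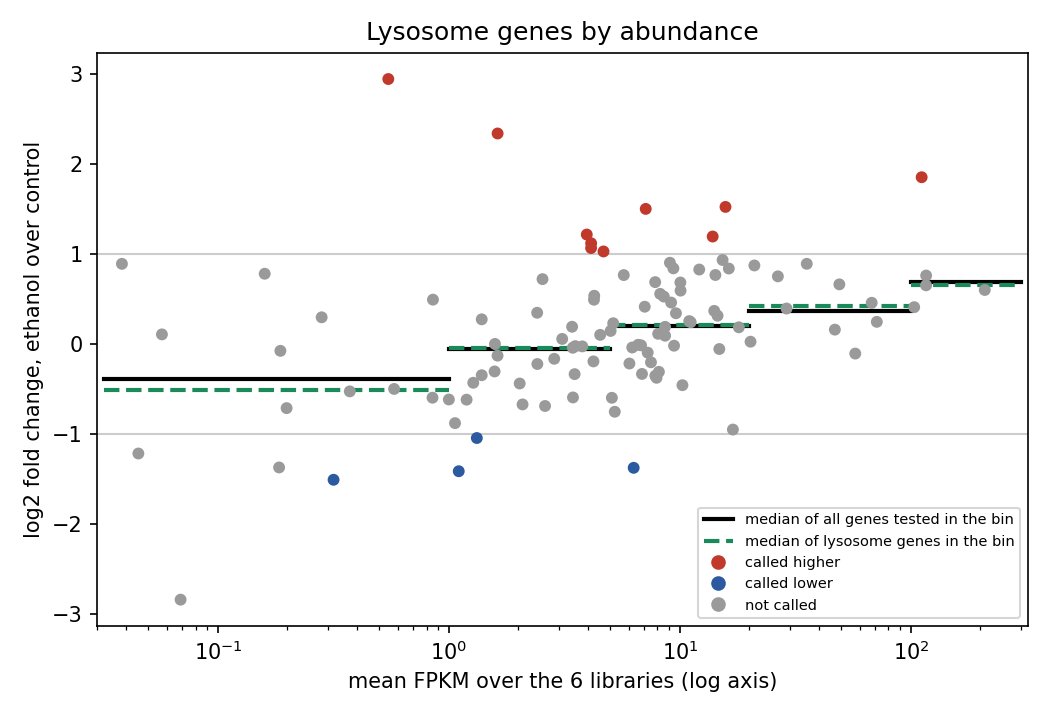
The horizontal axis is the mean FPKM over the 6 libraries on a log axis, the vertical axis is the log2 fold change of ethanol-exposed over control mice (edgeR, TMM scaling), each point is 1 tested lysosome gene, and solid and dashed lines are the medians of all genes and of lysosome genes in each abundance range. Both lines climb from below 0 under 1 FPKM to 0.69 and 0.65 at 100 FPKM or more, and the upregulated Ctsl lies above them at 111.4 FPKM.

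In lysosome genes, mice in the ethanol group varied more among themselves. The median coefficient of variation of the tested members was 16.2% in acute ethanol-exposed mice and 6.63% in control mice, and it was larger in the ethanol group for 82 of the 110. Ethanol replicate 3 was the farthest from the ethanol median for 66 of the 110, and the variation over all genes is not given here. The plot of role medians under several settings shows how far the scale of the libraries moves these values. Under library size alone the medians became 0.04 for proteases, -0.14 for membrane proteins, -0.26 for glycosidases and -1.16 for adaptor complexes, and relative to all genes they were 0.75, 0.57, 0.45 and -0.45, close to the values under TMM. A change of library scale moves all genes about alike, so this closeness follows from the subtraction and is no test of the role medians.

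**Figure D4:**
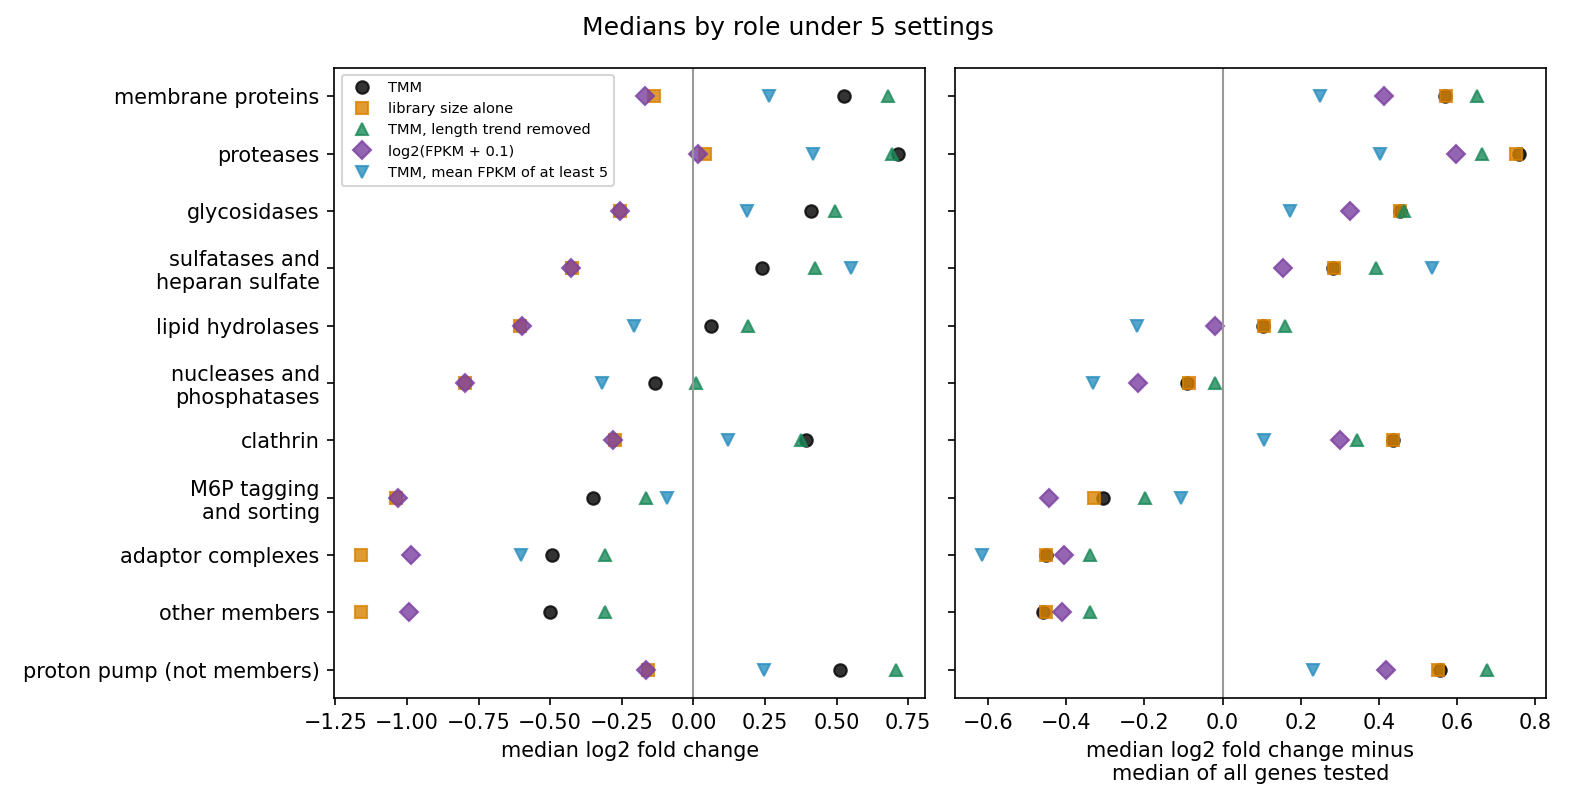
Each row is a role and each symbol a setting, with the median log2 fold change on the left axis and the same median minus that of all genes tested on the right axis, and the proton pump genes that are no members are in the last row. On the left the glycosidase median moves from 0.41 with TMM to -0.26 with library size alone, and on the right proteases, membrane proteins and glycosidases stay above 0 and adaptor complexes below 0 in all 5 settings shown.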

How the data were processed

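Liver RNA of 3 acute ethanol-exposed and 3 control mice was sequenced (paired-end), and the labels gave every group. The authors removed adaptor, low-quality and ambiguous reads and deposited raw counts and FPKM per gene in 1 table with KEGG assignments. The aligner, counter and strand setting are not given in the sources used here. The submitters' processing notes name GRCm38 (mm10), but only 1 of the 114 members has the same start and end in the table as in the GRCm38 annotation (GENCODE M21), while 98 have the same span, so table coordinates are not printed. The table has 1 count column that matches no library in the labels, and it was not used.

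The deposited counts were tested in R 4.3.3 with edgeR 4.0.16 (TMM factors, filterByExpr, quasi-likelihood test, two-sided, Benjamini-Hochberg adjustment over 16717 genes), with no covariate. Standard errors are the log2 fold change over the square root of F. The deposited FPKM served for levels between genes and for limma 3.58.1 on log2 values with pseudocounts of 1 and 0.1. Other alternatives were DESeq2 1.42.0, median ratio scaling, library size alone, removal of the length trend, no filter, a mean FPKM of at least 5, a replicate block and leaving out each library. On simulated counts of 16311 genes for this comparison, edgeR recovered 62.6% of 99 genes changed by 1.5 and 67.3% of 98 changed by 2 on the log2 scale. Recovery was counted at an adjusted p-value under 0.05 alone. In the data 21.5% of all genes passed that threshold in each direction, far more than were changed in the simulation, so these rates do not carry over to the calls. No pair of libraries agreed within sampling noise.

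Genes named were, per role, the 2 with the smallest adjusted p-values among those upregulated and among those downregulated, and the most abundant, plus Ctsb, Ctsd, Ctsl, Lamp1, Lamp2, Lipa, Npc1, Npc2, Mcoln1, Igf2r, M6pr, Cltc, Tfeb, Tfe3 and Mitf. Cd63, Cd68, Galns, Hexa, Sgsh, Cltb, Ap1g1, Fuca2, Dmxl1 and genes named only within a count were added after their values were seen. One gene of the rule is not reported here. The members, role lists and marker lists were chosen with earlier results of these data known. Promoters came from RefSeq (GRCm38.p6), and a gene with several counts as holding a motif if any of them does.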

Additional observations from a re-analysis of the deposited data

How the results depend on the processing

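The 14 upregulated or downregulated members were all called with median ratio scaling and with DESeq2. With library size alone 3 members were upregulated and 24 downregulated (5.06% and 32.2% of all genes), all genes tested had a median log2 fold change of -0.71 instead of -0.043, and the members one of -0.536. With limma the counts were 1 and 5 (pseudocount 1, 2.44% and 10.2% of all genes) and 3 and 23 (pseudocount 0.1, 4.4% and 29.7% of all genes), and the medians were -0.381 and -0.505, or -0.113 and 0.0769 relative to all genes. The filter at a mean FPKM of 5 left 61 members, 3 of them upregulated (4.92%, compared with 9.91% of all genes) and 3 downregulated (4.92%, compared with 10.2%). Their median was 0.0363, or 0.0224 relative to all genes, and 9 of the 14 called members were not tested under this filter. Removing the length trend gave a median of 0.281 and 0.25 relative to all genes. The relative median was 0.228 without a filter and 0.23 with DESeq2, compared with 0.17 in the fit reported. Single calls were also lost with the length trend removed (Ap1g2 and Cd68), with the FPKM filter (Hgsnat) and without a filter (Ctns). By the adjusted p-value alone 38 members were higher and 17 lower. Leaving out 1 library at a time gave 8 to 11 upregulated and 4 to 6 downregulated members, medians of 0.135 to 0.17 and relative medians of 0.174 to 0.248. Of all genes 8.76% were upregulated and 11.9% downregulated without ethanol replicate 1, and 9.66% and 13% without ethanol replicate 2. The cause of these shifts was not tested.

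Same-numbered mice did not deviate together (correlations of -0.0415, -0.0267 and -0.0075), so the numbers do not pair them. With the replicate number as a block 10 members were upregulated and 4 downregulated, the same 14 genes, and the median was 0.13.

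The sign of small changes depended on the setting. With library size alone log2 fold changes were -0.0036 for Acp5, -0.275 for Clta, -0.423 for Ctsb, -0.0205 for Ctsd, -0.322 for Dmxl2, -0.0701 for Lamp1, -0.512 for Lamp2, -0.48 for M6pr, -0.173 for Mcoln1, -0.104 for Npc1, -0.258 for Psap and -0.515 for Tfe3. In the same order limma gave -0.0354, -0.272, -0.422, -0.0237, -0.231, -0.0737, -0.504, -0.47, -0.155, -0.145, -0.266 and -0.347 with a pseudocount of 1, and -0.0366, -0.28, -0.427, -0.0239, -0.315, -0.074, -0.514, -0.495, -0.19, -0.168, -0.268 and -0.5 with 0.1. Removing the length trend gave 0.128 for Cltc and 0.0151 for Igf2r. The filter at a mean FPKM of 5 gave -0.0269 for Ctsb, -0.112 for Lamp2 and -0.0913 for M6pr. Hyal3 and Ap3m2 had under 200 counts in every library, and each group had 3 mice.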
